A study of Mus musculus with 6 samples.

Results

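The methionine cycle genes described here are Ahcy, its relatives Ahcyl1 and Ahcyl2, and Mat1a, Mat2a, Mat2b, Mtr, Bhmt, Cbs and Gnmt. They were taken by gene symbol and make up 10 of the 23699 gene models, and 14 of the 30028 isoforms, measured in mouse duodenum. They were chosen because Ahcy stands first by p-value in the authors' deposited table of mutant against control counts, so the differences between the groups are given for these genes as a description, without a test of their own.

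RNA of the whole duodenum, cut as the 2 cm nearest the stomach, was sequenced from 3 control and 3 mutant samples of mice aged 6 weeks on a mixed background. Controls were Nkx2.2flox/+ and their label names no Cre. Mutants were Nkx2.2flox/flox; Villin-Cre/+, and mutant 3 also carried Rosa26Tomato/+, a reporter allele. Every sample therefore has at least 1 floxed allele of Nkx2-2, the gene of a homeodomain transcription factor of endocrine cells, and the mutants have both alleles floxed with a Cre that the villin promoter drives in the intestinal epithelium. The samples also hold muscle, nerve, blood and attached tissue outside the epithelium. In such whole-tissue RNA, fewer cells of a type and less RNA per cell cannot be told apart.

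The methionine cycle turns methionine into S-adenosylmethionine (SAM), the methyl donor of most methylation reactions. Each methyl transfer leaves S-adenosylhomocysteine, which inhibits methyltransferases until AHCY, S-adenosylhomocysteine hydrolase, splits it into adenosine and homocysteine. Homocysteine is either methylated back to methionine or passed on to cysteine and glutathione. Intestinal epithelium renews itself continually and takes up dietary methionine.

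Ahcy lies on the minus strand of chromosome 2 (mm9, chr2:154885048-154900233) and had 1 isoform, of 2541 bases. The mm9 genome holds 3 further stretches that match at least 50% of its spliced transcript at 90% identity or more, and reads of 101 bases from many parts of the gene occur in them letter for letter. One is at chr16:46153104-46155189 (82.0% of the transcript, 99.7% identity), where the GENCODE vM1 annotation has the gene Gm4737. Another is at chr1:7167756-7169831 (81.9%, 98.7% identity), and the last is at chrX:65882540-65884561 (80.5%, 93.0% identity). No gene model of the deposited files overlaps any of these stretches, so reads that belong to them have no row of their own. Mat2a has 1 such copy, at chr5:22197903-22200679 (99.9% of the transcript, 95.0% identity), Bhmt has 2, and the other 7 genes have 0. A window as long as 1 read is shown for Ahcy and Mat2a from the mm9 genome, within the coding sequence, 5′ to 3′ along the transcript, to show how alike gene and copies are. Capitals mark bases of a copy that differ from the gene. The Ahcy window was picked among those identical in the chromosome 16 and chromosome 1 copies as the one with most differences in the X copy, and the Mat2a window as the first with the median number of differences.
Ahcy, chr2:154894645-154894745, minus strand: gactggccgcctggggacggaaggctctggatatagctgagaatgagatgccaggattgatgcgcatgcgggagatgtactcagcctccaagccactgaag
Ahcy copy on chromosome 16, chr16:46154988-46155088, minus strand: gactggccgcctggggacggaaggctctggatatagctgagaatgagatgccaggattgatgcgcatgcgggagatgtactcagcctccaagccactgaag
Ahcy copy on chromosome 1, chr1:7167857-7167957, plus strand: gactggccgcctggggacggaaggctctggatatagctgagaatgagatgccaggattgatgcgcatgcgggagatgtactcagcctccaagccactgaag
Ahcy copy on the X chromosome, chrX:65882640-65882740, plus strand: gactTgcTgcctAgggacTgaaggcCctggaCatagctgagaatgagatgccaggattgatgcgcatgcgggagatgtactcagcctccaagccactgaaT
Mat2a, chr6:72386236-72386336, minus strand: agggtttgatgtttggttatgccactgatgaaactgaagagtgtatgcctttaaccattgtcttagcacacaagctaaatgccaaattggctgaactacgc
Mat2a copy on chromosome 5, chr5:22200057-22200157, minus strand: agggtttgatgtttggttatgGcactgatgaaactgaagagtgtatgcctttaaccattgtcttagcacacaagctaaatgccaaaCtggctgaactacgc
The Ahcy window differed at 0 bases from the chromosome 16 copy, at 0 from the chromosome 1 copy and at 7 from the X copy. The Mat2a window differed from its copy at 2 bases.

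Over the whole Ahcy transcript, 1761 of 2443 windows of 101 bases (72.1%) occurred unchanged in at least 1 copy. A further 225 (9.21%) had 1 or 2 mismatches to the nearest copy. The other 457 (18.7%) reached beyond the copies, 416 of them after the coding sequence at the 3′ end of the transcript and 41 at its 5′ end. For Mat2a, 4.70% of windows were unchanged in the copy and 32.0% had 1 or 2 mismatches, and for Bhmt these shares were 46.9% and 34.6%. In each of the other 7 genes, 0 windows came within 2 mismatches of another place in the genome. Values of Ahcy, Bhmt and, to a smaller extent, Mat2a are therefore uncertain by the reads their copies share, and how these reads were assigned is not given in the sources used here.

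**Figure D1:**
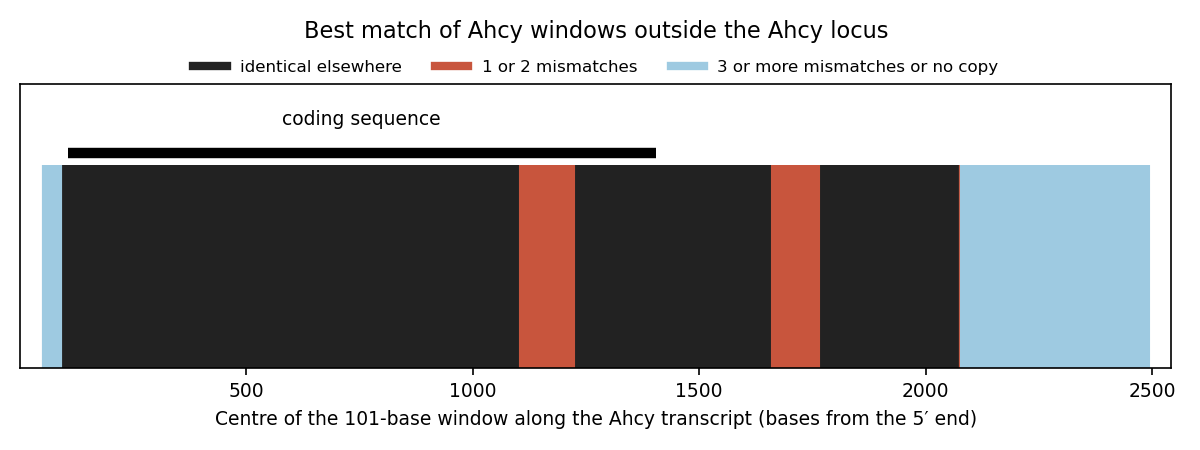
Position along the Ahcy transcript in bases (x axis), with each window of 101 bases coloured by its fewest mismatches to a copy elsewhere in the mm9 genome and the coding sequence drawn as a bar. Windows found unchanged in a copy (72.1%) run through the coding sequence, and most windows without a counterpart lie at the 3′ end.

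Depth was 21.0 to 26.3 M reads per library. Nkx2-2, the targeted gene, was at 1.13, 1.32 and 0.779 FPKM in controls 1 to 3 against 1.10, 0.736 and 0.221 in mutants 1 to 3, so the groups overlapped, and whether reads fall in the floxed part cannot be read from a value per gene. Vil1, which encodes the epithelial protein villin, was at 561 to 651 FPKM in controls and 528 to 702 in mutants, and the 14 absorptive enterocyte markers were all among the tested genes. Control 3 and mutant 3 stood apart from the other libraries, with summed enterocyte marker levels of 15840 and 18410 FPKM against 28820 to 38980. Summed smooth muscle markers in these libraries were at 1261 and 1038 FPKM against 660 to 793. Xist, the RNA of the inactive X chromosome, was at 19.7 and 22.5 FPKM in mutants 2 and 3 and at most 0.0895 in the others, so the sexes of the samples differed and were not balanced between the groups.

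Ahcy had lower values in every mutant than in any control. Its level, in fragments per kilobase of transcript scaled to library depth (FPKM), was 51.1, 55.0 and 53.1 in controls 1 to 3 and 34.0, 33.8 and 39.5 in mutants 1 to 3. The controls lay close together and the mutants lay below all of them, with mutant 3 nearest to the controls. The means were 53.1 ± 1.98 and 35.8 ± 3.27 FPKM (SD, n = 3 each), a mutant level relative to control of -32.6% and a log2 difference of -0.57 ± 0.10 (SE, limma on log2(FPKM + 0.5)). Mutant 1 was at 64.0% of the control mean, mutant 2 at 63.6% and mutant 3 at 74.5%. Xist was almost absent in mutant 1 and the controls, so sex and group went together in part. The part of sex in the Ahcy values was not tested. The values rest on 2653 to 3123 rebuilt reads in controls and 1685 to 1930 in mutants.

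Across all 13596 tested genes limma called 3 (adjusted p under 0.05 after Benjamini-Hochberg, 0.0221%), and 0 of the 8 methionine cycle genes that passed the expression minimum were among them. At an unadjusted p under 0.05 there were 2 of the 8, Ahcy and Gnmt, against 3.43% of all tested genes, and limma-voom on rebuilt reads called 0 of 13520 genes with 1 of the 8 at an unadjusted p under 0.05. In 1 of the 8, Ahcy, the groups did not overlap, against 7.75% of all tested genes (3.71% with mutants lower and 4.05% with mutants higher). These genes were chosen on this contrast, so the counts are given for completeness. Of all tested genes, 20 had a smaller unadjusted p than Ahcy.

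In the authors' deposited table, Ahcy had a mean normalized count of 401 in controls and 63.5 in mutants, a log2 difference of -2.66. The authors' deposited table gives it a p of 1.54e-26 and an adjusted p of 2.87e-22, the first of 18605 genes with an adjusted value. The authors' deposited table has 26 genes below an adjusted p of 0.05 (0.14%), 17 of them lower in mutants (0.0914%), and Ahcy is the 1 methionine cycle gene among them. Each of the other 9 has an adjusted p of 1 in the authors' deposited table. The table holds group means only, so the spread of these counts over libraries is not known here.

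The 2 measures of Ahcy thus differed in size. Reads rebuilt from the deposited coverage, scaled by median ratios, averaged 2751 in controls and 1886 in mutants, a log2 difference of -0.54. The authors' deposited table held 14.6% of that number in controls and 3.36% in mutants. The reads not in the table came to 2350 in controls and 1823 in mutants, a log2 difference of -0.37. Both the counted and the uncounted reads were therefore fewer in mutants, and the counted ones by far more. Over 12249 genes with at least 50 rebuilt reads in each group, the authors' deposited table held a median of 100.6% of rebuilt reads in controls and 100.9% in mutants. A smaller share than that of Ahcy was found for 217 of these genes in controls and for 139 in mutants, and 457 genes (3.73%) were below 50% in both groups.

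Between the groups the 2 measures rarely parted as they did for Ahcy. For 11896 genes (97.1%) the log2 differences from rebuilt reads and from the authors' deposited table, with 0.5 added to each mean, lay within 0.1 of each other. They were more than 1 apart in 24 genes (0.196%). For Ahcy the difference in the table minus that in rebuilt reads was -2.11. That was the second largest gap of all, and the largest among the 12009 genes with at least 50 counts in the authors' deposited table too, where the next, Gm11968, was at 1.25. Which reads the authors' count table left out was not tested.

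**Figure D2:**
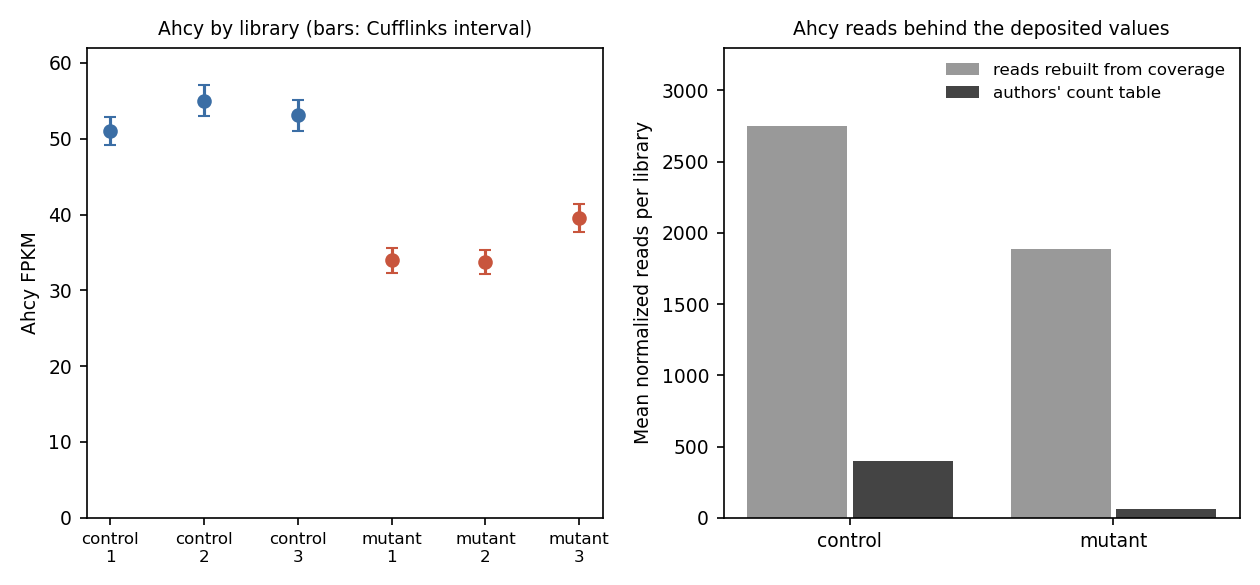
Left, Ahcy level in FPKM per library, with bars for the interval Cufflinks gave; right, mean normalized Ahcy reads per group as rebuilt from coverage and as given in the authors' deposited table. The 3 mutants (33.8 to 39.5 FPKM) lie below the 3 controls (51.1 to 55.0), and the table holds 14.6% of rebuilt reads in controls and 3.36% in mutants.

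**Figure D3:**
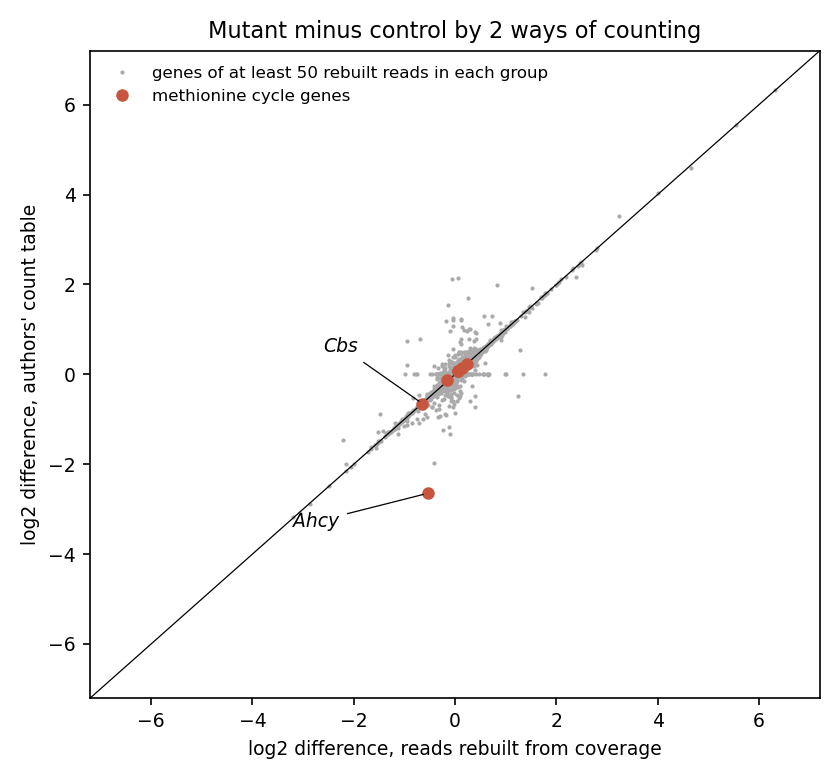
Log2 difference, mutant minus control, from reads rebuilt from coverage (x axis) and from the authors' deposited table (y axis), for genes with at least 50 rebuilt reads in each group (grey) and the methionine cycle genes (coloured), with a line of equality. Ahcy lies off the line by -2.11, while 11896 of 12249 genes lie within 0.1 of it.

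The relatives of Ahcy were the most abundant of the 10 genes, and their groups overlapped. Ahcyl1 encodes IRBIT, a protein related to AHCY that binds the inositol trisphosphate receptor and regulates ion transporters. It was at 229, 226 and 168 FPKM in controls 1 to 3 against 251, 292 and 166 in mutants 1 to 3. Both libraries numbered 3 were low, as they were for the enterocyte markers, and mutants 1 and 2 were above all controls; the part of the enterocyte share in these levels was not tested. The means were 207 ± 34.7 and 236 ± 64.0 FPKM (SD, n = 3), and the log2 difference of 0.16 ± 0.23 (SE, limma) was 0.40 without mutant 3, 0.02 without control 3, 0.10 without mutant 1 and -0.0064 without mutant 2. Its size and sign therefore rest on single libraries.

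Ahcyl2 encodes a longer relative of IRBIT. It was at 149, 166 and 151 FPKM in controls against 161, 170 and 144 in mutants, so mutant 3 was the lowest library and mutant 2 the highest. Its means of 155 ± 9.33 and 158 ± 13.2 FPKM (SD, n = 3) differed by less than the spread between replicates. Of its 3 isoforms, the one of 4918 bases that starts at chr6:29809596, inside the gene, held 76.4% ± 1.09 of the FPKM in controls and 77.7% ± 5.84 in mutants. The isoform of 5198 bases held 19.6%, 20.5% and 19.8% in controls and 16.7%, 16.7% and 26.4% in mutants. The remaining one, of 5201 bases, was at 5.82, 6.91 and 4.10 FPKM in controls against 3.57, 3.84 and 3.86 in mutants, lower in every mutant than in any control. Its length differs by 3 bases from that of its neighbour, so the split between these isoforms rests on little sequence. Of the 12 isoforms of these genes that passed the minimum, limma called 0 of 12, against 0.00617% of all 16213 isoforms tested, with 2 at an unadjusted p under 0.05 against 3.79% of all. The groups did not overlap in 3 of the 12 (8.21% of all isoforms).

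SAM synthesis is represented by Mat2a, the catalytic subunit outside the liver, Mat2b, its regulatory subunit, and Mat1a, the catalytic subunit of adult liver. Mat2a was at 47.3, 51.4 and 45.4 FPKM in controls against 50.5, 44.6 and 51.8 in mutants. The highest and the lowest library were both mutants, and the means of 48.0 ± 3.06 and 49.0 ± 3.86 FPKM (SD, n = 3) differed by less than the spread. The authors' deposited table held 89.2% of rebuilt Mat2a reads in controls, and the log2 ratio of the table to rebuilt reads was -0.16 in controls and -0.15 in mutants, so the table fell short alike in both groups.

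Mat2b was at 42.9, 44.2 and 45.9 FPKM in controls against 48.4, 45.2 and 50.4 in mutants. Mutant 2 lay among the controls and the other mutants above them, with means of 44.3 ± 1.50 and 48.0 ± 2.62 FPKM (SD, n = 3) and a log2 difference of 0.11 ± 0.09 (SE, limma). Its isoform of 1857 bases held 86.6% ± 1.42 of the FPKM in controls and 88.6% ± 3.49 in mutants. That isoform was at 37.8 to 39.4 FPKM in controls and 40.3 to 46.3 in mutants, without overlap. Mat1a was at 0.597, 0.321 and 0.327 FPKM in controls against 0.486, 0.224 and 0.0478 in mutants, values that rest on 3 to 47 reads per library. It stayed below the expression minimum and was not among the tested genes.

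Mat2a and Ahcy changed places in the order of levels between the groups. Ahcy was above Mat2a in each control and below it in each mutant. The ratio of Mat2a to Ahcy FPKM was 0.927, 0.934 and 0.855 in controls and 1.49, 1.32 and 1.31 in mutants, without overlap. The means were 0.905 ± 0.0435 and 1.37 ± 0.0992 (SD, n = 3). The ratio of Ahcyl2 to Ahcy was 2.93 ± 0.0864 in controls and 4.47 ± 0.734 in mutants, again without overlap, with mutant 3 lowest of the mutants at 3.64. The ratio of Ahcyl1 to Ahcy overlapped, since mutant 3, at 4.21, lay between controls 2 and 1 at 4.10 and 4.49. Ahcy was chosen on this contrast, and Mat2a and Ahcyl2 each had a log2 difference of 0.03. The changed order and the separate ratios therefore restate the lower Ahcy values and are no further result. They also share the uncertainty from the copies of Ahcy and Mat2a. Mat2a relative to its partner Mat2b was at 1.09 ± 0.0881 and 1.02 ± 0.0299.

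RNA of Mtr and Bhmt, the genes of both routes from homocysteine back to methionine, was low in this tissue. Mtr, the cobalamin-dependent methionine synthase, was at 1.15, 1.77 and 0.906 FPKM in controls against 1.39, 0.854 and 1.09 in mutants, with 83 to 165 reads per library. Control 2 was the highest library and mutant 2 the lowest, and the groups overlapped. Bhmt, which methylates homocysteine with betaine and is known from liver and kidney, was at 0.123, 0.0493 and 0.0752 FPKM in controls against 0.0253, 0 and 0.128 in mutants. These values rest on at most 6 reads in any library, some of which its copies may share, and no difference could be detected at this depth.

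Cbs and Gnmt were low and were lowest in mutant 3. Cbs, cystathionine beta-synthase, commits homocysteine to cysteine synthesis. It was at 2.00, 3.15 and 1.84 FPKM in controls against 2.38, 1.49 and 0.400 in mutants, where 18 to 148 reads lie behind a value. The groups overlapped, since mutant 1 lay above controls 1 and 3. The log2 difference was -0.68 ± 0.43 (SE, limma) with all libraries, -0.21 without mutant 3 and -1.05 without mutant 1. The 2 isoforms of Cbs differ in length by 52 bases and took unstable shares: the one of 2366 bases held 24.9%, 100% and 50.3% in controls 1 to 3 and 64.7%, 67.9% and 100% in mutants 1 to 3.

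Gnmt, glycine N-methyltransferase, uses up SAM and is abundant in liver and pancreas. It was at 1.99, 2.34 and 1.08 FPKM in controls against 1.03, 1.12 and 0.407 in mutants, with 7 to 43 reads per library. Controls 1 and 2 were high, mutant 3 was low, and control 3 lay among the mutants. The means were 1.81 ± 0.654 and 0.853 ± 0.390 FPKM (SD, n = 3), and the log2 difference was -0.77 ± 0.30 (SE, limma) with all libraries, and from -1.02 without control 3 to -0.51 without mutant 3 when 1 library was left out.

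Markers of exocrine pancreas and of Brunner gland and stomach were present in these libraries, and both were lowest in mutant 3, as Gnmt and Cbs were. The 19 exocrine pancreas markers, enzymes such as Ctrb1 and Cela2a among them, summed to 23250, 21220 and 14410 FPKM in controls and to 14220, 9380 and 3213 in mutants. All 19 were tested, 18 had lower values in mutants, 7 did so without overlap (3.71% of all tested genes), limma called 0 with 7 at an unadjusted p under 0.05 (3.43% of all), and 0 of the 19 were at 0. Mutant 3 was the lowest library for 18 of the 19 and also for Gnmt, Cbs and Mat1a, and the part of pancreatic RNA in the values of these genes was not tested. The pancreas sums separated the groups only narrowly, with control 3 at 14410 and mutant 1 at 14220 FPKM. Ahcy separated them more widely, with the lowest control at 51.1 and the highest mutant at 39.5 FPKM. Among the mutants the library with the smallest sum, mutant 3, had the highest Ahcy level. The part of pancreatic RNA in the Ahcy values was not tested either. The Brunner gland and stomach markers summed to 2712, 8649 and 3115 FPKM in controls and to 4811, 1098 and 142.6 in mutants. All 8 tested markers of that list had lower values in mutants (median log2 difference -2.43), 1 without overlap, limma called 0 with 1 at an unadjusted p under 0.05, and 0 were at 0. Their sum and Cbs were both highest in control 2, next in mutant 1 and lowest in mutant 3, and the part of these cells in the Cbs values was not tested. Of the 11 liver markers 4 passed the minimum, Alb was at 0 to 0.249 FPKM, Fgb was at 0 in all libraries, and the sum of 15.5 to 35.1 FPKM in controls and 5.92 to 11.5 in mutants was carried in controls mainly by Afp (10.6 to 25.6 FPKM in controls, 0.537 to 1.90 in mutants).

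**Figure D4:**
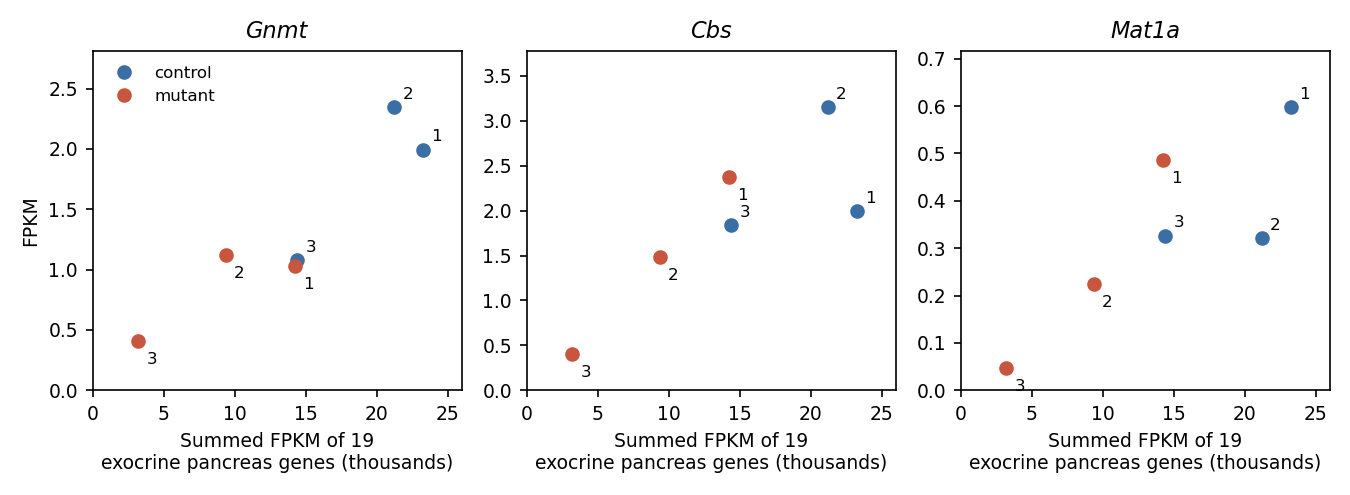
Levels of Gnmt, Cbs and Mat1a in FPKM (y axes) against the summed FPKM of 19 exocrine pancreas genes (x axes, unit on the axis), 1 point per library labelled with its replicate number. Mutant 3 has the lowest pancreas sum (3213 FPKM) and the lowest Gnmt (0.407), Cbs (0.400) and Mat1a (0.0478) levels.

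In order of mean level over the 6 libraries the genes ran Ahcyl1 (222 FPKM), Ahcyl2 (157), Mat2a (48.5), Mat2b (46.2), Ahcy (44.4), Cbs (1.87), Gnmt (1.33), Mtr (1.19), Mat1a (0.334) and Bhmt (0.0668). The ranges of Ahcyl1 and Ahcyl2 overlapped, although Ahcyl1 was higher in each of the 6 libraries. Over all 6 libraries the ranges of Mat2a, Mat2b and Ahcy overlapped, but within groups Ahcy lay above Mat2b in controls (51.1 to 55.0 against 42.9 to 45.9 FPKM) and below both Mat2a and Mat2b in mutants (33.8 to 39.5 against 44.6 to 51.8 and 45.2 to 50.4), without overlap. Cbs, Gnmt and Mtr could not be ordered beyond their spread over the 6 libraries, nor could Mat1a and Bhmt. No overlap separated Ahcyl2 from Mat2a, Ahcy from Cbs and Mtr from Mat1a.

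**Figure D5:**
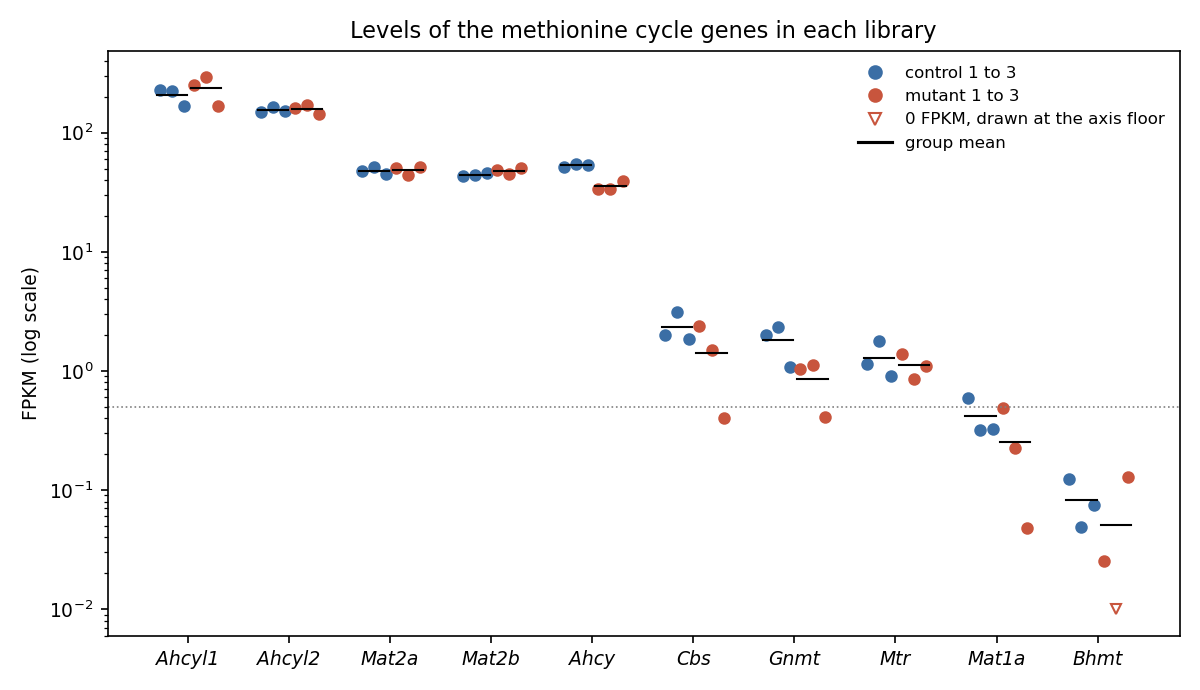
Level of each methionine cycle gene in FPKM (log scale), 1 point per library, controls and mutants in different colours, genes in order of mean level, with the expression minimum of 0.5 as a dotted line. The genes form a high group (Ahcyl1, Ahcyl2), a middle group (Mat2a, Mat2b, Ahcy) and a low group, and Ahcy alone of the 8 tested genes shows separate groups.

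The surrounding pathways were described with 8 lists of 121 symbols, chosen with earlier results of these data known. Of their 111 tested genes limma called 0, with 3 lower and 1 higher at an unadjusted p under 0.05, against 3.43% of all genes. Values did not overlap between groups in 8 genes (7.21%; 7.75% of all tested genes), 4 lower and 4 higher, and the median log2 difference was -0.03. In each of the 8 lists the number called was 0.

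In the list of transsulfuration and glutathione, 0 of 14 tested genes were called, with 6 of lower and 8 of higher value. Ggt1, which starts glutathione breakdown at the cell surface, was at 483 ± 65.2 and 536 ± 67.1 FPKM (control and mutant mean, SD, n = 3), and Gsr, glutathione reductase, was at 101 ± 44.8 and 108 ± 41.2. Chac1, an enzyme that degrades glutathione, was at 1.46, 1.49 and 2.30 FPKM in controls against 0.934, 0.865 and 0.948 in mutants, without overlap, with an adjusted p of 0.999 in limma with Benjamini-Hochberg adjustment. In the folate cycle list 0 of 18 were called and the median log2 difference was -0.12. Slc46a1, the proton-coupled folate transporter of the duodenum, was at 428 ± 113 and 467 ± 77.6 FPKM, and Slc19a1, the reduced folate carrier, at 47.1 ± 6.61 and 54.6 ± 3.92. Aldh1l2, a mitochondrial formyltetrahydrofolate dehydrogenase, was at 0.537, 1.04 and 0.505 FPKM in controls against 0.436, 0.274 and 0.189 in mutants. Mthfs, which returns formyltetrahydrofolate to the folate pool, was at 10.4 to 11.9 FPKM in controls and at 11.9 to 15.8 in mutants. Aldh1l2 was thus lower and Mthfs higher without overlap, the latter by a narrow margin.

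Among 11 tested genes of cobalamin handling 0 were called. Tcn2, transcobalamin, was at 191 ± 4.95 and 208 ± 8.56 FPKM without overlap, while Mmadhc and Mmab, which process cobalamin in the cell, were at 64.9 ± 4.74 and 66.9 ± 1.44 and at 5.55 ± 0.825 and 4.53 ± 0.564. Among 11 genes of choline and betaine 0 were called. Chkb, a choline kinase, was at 42.9 ± 1.19 and 45.9 ± 1.75 FPKM without overlap, and the other choline kinase, Chka, at 45.7 ± 11.1 and 47.9 ± 19.1. The choline transporter Slc44a1 was at 25.1 ± 4.42 and 20.2 ± 1.83 FPKM. Slc6a20a, an imino acid carrier, spread from 30.8 to 108 FPKM over the controls alone. Among 14 genes of polyamines and methionine salvage 0 were called and 0 had separate groups. Oaz1, which restrains ornithine decarboxylase, was at 138 ± 17.6 and 150 ± 5.83 FPKM, Sat1, which acetylates polyamines, at 132 ± 11.1 and 142 ± 13.6, and Srm, spermidine synthase, at 23.4 ± 0.760 and 19.4 ± 4.84.

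Among 25 tested SAM-dependent methyltransferases, the enzymes whose product AHCY removes, 0 were called, 18 had lower and 7 higher values, and the median log2 difference was -0.04. Dnmt1, the maintenance DNA methyltransferase, was at 10.5, 13.8 and 10.4 FPKM in controls against 9.63, 7.54 and 9.77 in mutants. Those groups did not overlap. The 20 markers of proliferating cells had a lower mean log2 level in mutants, 20 of 20, and 0 of them were at 0. Their sums were 406, 466.6 and 411.5 FPKM in controls against 332.8, 315.8 and 442.8 in mutants, so mutant 3 lay above controls 1 and 3. Separate groups were found in 0 of the 20 (7.75% of all tested genes). Limma called 0, with 2 at an unadjusted p under 0.05 (3.43% of all). The part of proliferating cells in the Dnmt1 values was not tested. Pcmt1, which repairs aged proteins, was at 21.7 ± 1.17 and 24.1 ± 0.595 FPKM without overlap. Prmt1, an arginine methyltransferase, was at 45.7 ± 5.17 and 41.3 ± 9.75 FPKM, with overlap.

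For the removal of adenosine, the other product of AHCY, 0 of 9 tested genes were called. Ada, adenosine deaminase, was the most abundant of the pathway genes named here, at 2289, 1648 and 933 FPKM in controls and 1649, 1393 and 785 in mutants. It was lowest in the libraries numbered 3 of each group, and its groups overlapped. Slc28a2, a nucleoside transporter, was at 121 ± 38.2 and 137 ± 21.7 FPKM. Dpp4, a surface peptidase that binds adenosine deaminase in human, was at 50.4 ± 8.77 and 74.9 ± 17.0, with overlap. For methionine uptake, 0 of 9 were called. The neutral amino acid transporter Slc6a19 was at 202 ± 67.0 and 204 ± 56.8 FPKM and Slc7a9 at 127 ± 23.5 and 138 ± 19.6. Slc7a5, a large neutral amino acid transporter, was at 6.64, 6.53 and 6.68 FPKM in controls against 5.34, 4.37 and 5.42 in mutants, without overlap.

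Ahcy and Nkx2-2, the targeted gene, share a chromosome, with starts 7.88 Mb apart. Of 25 tested genes that start within 1 Mb of Ahcy, limma called 0, with 0 at an unadjusted p under 0.05, and their median log2 difference was -0.01. The groups did not overlap in 2 of them (8.00%, against 7.75% of all tested genes and 8.74% of the 1064 tested genes on the chromosome other than Ahcy), both lower in mutants. Ncoa6, a nuclear receptor coactivator, was at 8.39 to 9.27 FPKM in controls and 7.59 to 8.18 in mutants, and Trpc4ap at 40.8 to 41.1 and 35.2 to 40.2. Of 66 tested genes between Nkx2-2 and Ahcy, limma called 0, with 3 at an unadjusted p under 0.05 (3.43% of all tested genes), and the median was -0.06. Here 4 had separate groups (6.06%, against 7.75% of all tested genes in either direction). All 4, like the 2 near Ahcy, were lower in mutants, which held without overlap for 3.71% of all tested genes. On the whole chromosome 46 were lower and 47 higher. The counts near Ahcy are small, and their shared direction was not tested. The 4 genes between Nkx2-2 and Ahcy were Zcchc3 (log2 difference -0.34), Pygb, the brain form of glycogen phosphorylase (-0.29), Tm9sf4 (-0.24) and 8430427H17Rik (-0.22). Zcchc3 lay near the expression minimum, at 0.713 to 0.829 FPKM in controls and 0.464 to 0.522 in mutants. The part of the chromosome region around the floxed gene in the Ahcy difference was not tested. It cannot be told apart from the loss of Nkx2-2 here, since controls were Nkx2.2flox/+ and mutants Nkx2.2flox/flox. The labels give neither the strains behind the mixed background nor which allele at Ahcy each mouse carried.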

How the data were processed

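Total RNA (RIN above 8) went into TruSeq libraries, per the labels. The submitters' processing notes list TopHat, Cufflinks, DESeq, CASAVA 1.8.2 and the build mm9. Options, strand, counter and the handling of reads with several matches are not given in the sources used here. The authors deposited FPKM per gene and isoform with a coverage signal per isoform, per the file headers. The authors' deposited DESeq table holds, per gene, 1 mean normalized signal for each group, the fold ratio and log2 ratio between them, and p-values raw and adjusted.

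Reads were rebuilt as coverage times (length - 211) / 101, with both constants fitted so that low values came out whole (92.3% of 17125 values up to 20 reads, tolerance 0.05). Genes reaching 0.5 FPKM in 3 or more libraries (13596, and 16213 isoforms) entered limma 3.58.1 as log2(FPKM + 0.5) (trend, robust prior, statmod 1.5.0, R 4.3.3), two-sided; adjustment followed Benjamini-Hochberg, the threshold was 0.05, and the fit was tested on simulated data. Fold differences on this scale are understated for low genes. In the simulated data 66% of genes with a log2 change of 1 were recovered and 87% of those with a change of 2. For isoforms these shares were 40% and 72%. Smaller changes, such as that of Ahcy, were not simulated, so a count of 0 called does not show that no gene changed. Copies were sought with blastn 2.17.0 in the mm9 genome, and file loci were taken as 0-based. Python 3.11.15, pandas 2.3.3, numpy 2.4.6 and matplotlib 3.10.9 served for summaries and plots.

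Members and lists were chosen with earlier results of these data known. Named genes are all members, 3 per list (highest means and smallest p), genes near Ahcy with separate groups, and those most and least like Ahcy; Mthfs, Chkb, Pcmt1 and the genes of the count comparison were added after their values were seen. Of the genes this rule names, 1 is not reported here. Asmt, Sh2d6, Muc2 and Mptx1 matched no gene model.

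The labels do not say that samples are separate animals, so p-values cover only the spread of these 6 samples, which may be technical. Nor do they give the meaning of a replicate number. Same-numbered pairs shared deviations from their group means, with correlations of 0.26, 0.25 and 0.58. However, control 1 correlated at 0.30 with mutant 2, so the match of 1 with 1 and 2 with 2 is not shown. The main fit left the samples unpaired, and pairing by number entered only as the replicate block among the alternatives. Alternatives were other pseudocounts, filters, scalings and priors, a replicate block, leaving out each library, leaving out transcripts under 200 bases, and limma-voom on rebuilt reads.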

Additional observations from a re-analysis of the deposited data

How the results depend on the processing

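The log2 difference of Ahcy kept its sign under all 16 alternatives (-0.64 to -0.53) and was called in 0 of them, the replicate block included. For most of these the sign was fixed in advance. Filters, priors and the block cannot change the difference, and with groups that do not overlap, leaving out 1 library cannot change its sign. The adjusted p of Ahcy (limma, Benjamini-Hochberg) was 0.49 in the main fit and moved widely with the setting. It was lowest without mutant 3 (0.0634), next with the replicate block (0.0815), and 0.973 without control 1. Members called stayed at 0 in each of the 16 settings. The count of genes called, 3, was 1 with no filter, 22 with the replicate block, 0 without transcripts under 200 bases and 0 by voom on rebuilt reads, which was chosen after seeing the data. Leaving out 1 library gave 2 to 68 genes, with 8 without mutant 1 and 68 without mutant 3. The count of isoforms called, 1, was 4 with no filter and 3 with the replicate block. Leaving out 1 library gave 1 to 20 isoforms, with 2 without control 1, 4 without control 3, 5 without mutant 1 and 20 without mutant 3. In the order of levels, chosen for repeats after seeing the data, 0 to 2 members changed rank when 1 library was left out. Of 248 repeated values of members and their isoforms, 0 moved by more than the replicate SD. That count was largely fixed in advance and shows little about stability. Filters, priors and the block leave a difference as it was, and leaving out 1 of 3 libraries moves a group mean by less than that group's SD. Depth limits Mat1a, Gnmt, Cbs, Mtr and Bhmt, each under 100 rebuilt reads in at least 1 library, and copies of the transcript limit Ahcy, Bhmt and Mat2a. The cause of these shifts was not tested.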

Other observations

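Over the 6 libraries, the level profiles most like that of Ahcy among 8723 tested genes with a mean of at least 5 FPKM were those of Tac1 (Pearson r = 0.98 of log2(FPKM + 0.5)), Nup50 (0.97), Bysl (0.97), Snora17 (0.97) and Gm5424 (0.96). All points share the split into 3 controls and 3 mutants, and with 6 points for so many genes high values of r are common, so they are given as a description. Tac1, which encodes the peptide substance P of enteroendocrine cells and neurons, was at 11.1, 10.7 and 11.3 FPKM in controls against 1.77, 1.07 and 2.55 in mutants. Snora17, a small nucleolar RNA gene on the chromosome of Ahcy, was at 12.2, 14.7 and 14.9 FPKM in controls and is listed at 0 in the mutants. The number of reads behind the Snora17 values is not given here, and FPKM of short transcripts can rest on few reads. Nup50, a nuclear pore protein, Bysl, a ribosome assembly factor, and Gm5424 had log2 differences of -0.12, -0.30 and -0.38.

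The profiles least like that of Ahcy were those of Ghrl (r = -0.99), Hmox2 (-0.99), Prdx5 (-0.99), Trak1 (-0.98) and Ppp1cc (-0.98). Ghrl, the ghrelin gene, was at 82.4, 70.8 and 58.6 FPKM in controls against 1320, 1360 and 644 in mutants. Its lowest mutant was mutant 3, the mutant with the highest Ahcy level. Prdx5, a peroxiredoxin, was at 664 to 702 FPKM in controls and 796 to 926 in mutants, Hmox2, a heme oxygenase, at 43.6 to 45.1 and 49.2 to 52.1.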
